A study of Homo sapiens with 10 samples.

Results

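The retinoblastoma (RB) and E2F gene family was followed in HEK293FT cells carrying a dCas9-VP64 transcriptional activator with or without a guide RNA. The members were the rows of the expression matrix whose gene name is RB1, RBL1, RBL2, E2F1, E2F2, E2F3, E2F4, E2F5, E2F7 or E2F8. All 10 have a row of their own among 19301 named features, and all 10 passed the filter on low values (a mean of at least 1 FPKM, fragments scaled by transcript length and library size), which 11574 features passed. HEK293FT is a readily transfected line descended from human embryonic kidney cells. In every group the cells held integrated Gaussia and Cypridina luciferase reporters and received dCas9-VP64, an inactive Cas9 fused to an activation domain, by transient transfection. The group CasVP received dCas9-VP64 without a guide. The groups sgRNA, INT, P4P6 and TOP1 each received it with a guide of that label directed at the Gaussia reporter. There were 2 libraries per group. Every group had the same listed doses of dCas9-VP64 plasmid (59 ng), carrier DNA (679.4 ng) and transfection reagent. The guide groups had a further 11.6 ng of guide plasmid, for which no filler is listed in CasVP. The effect of that added plasmid was not tested. Polyadenylated RNA was sequenced 3 days after transfection. RNA was taken from whole wells, and no label states a selection for transfected cells or separate cultures behind the libraries, so p-values measure the spread between these samples only. Libraries are named by the index 0 or 1 in their column; the labels number replicates differently, and which index is which replicate is not known.

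RB1 and its relatives RBL1 (p107) and RBL2 (p130) are pocket proteins that bind E2F transcription factors and hold their target genes down until cyclin-dependent kinases phosphorylate them. E2F1, E2F2 and E2F3 activate genes for DNA synthesis, E2F4 and E2F5 act mainly with RBL1 and RBL2 in repression, and E2F7 and E2F8 are atypical repressors that bind DNA without a pocket protein or a dimer partner. HEK293 cells carry adenovirus E1A and the HEK293T and HEK293FT derivatives also SV40 large T antigen, and both viral proteins bind the pocket proteins and release E2F. The levels here are those of mRNA and do not report the state of the proteins.

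Several family genes are themselves textbook E2F targets, and their promoters are shown for that reason. Windows of 250 bases before to 50 after the start (RefSeq, GRCh38.p14) were searched on both strands for the E2F letters TTTCCCGC, TTTGGCGC, TTTCGCGC and TTTGCCGC, which can overlap each other on opposite strands. A window was found for 8 members, and 4 of these, RBL1, E2F1, E2F2 and E2F3, held a match, against 3.99% of 27305 genes. Both promoters with 2 matches lie on chromosome 20 and are printed on the gene's strand (minus), with matched letters in capitals.
E2F1, chr20:33686336-33686635: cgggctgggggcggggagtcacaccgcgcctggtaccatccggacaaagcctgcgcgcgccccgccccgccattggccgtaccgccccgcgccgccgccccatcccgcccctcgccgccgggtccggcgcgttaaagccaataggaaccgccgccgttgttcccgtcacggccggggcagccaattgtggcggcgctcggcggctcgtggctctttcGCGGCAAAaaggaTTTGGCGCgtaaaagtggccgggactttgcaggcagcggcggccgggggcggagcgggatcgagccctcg
RBL1, chr20:37095948-37096247: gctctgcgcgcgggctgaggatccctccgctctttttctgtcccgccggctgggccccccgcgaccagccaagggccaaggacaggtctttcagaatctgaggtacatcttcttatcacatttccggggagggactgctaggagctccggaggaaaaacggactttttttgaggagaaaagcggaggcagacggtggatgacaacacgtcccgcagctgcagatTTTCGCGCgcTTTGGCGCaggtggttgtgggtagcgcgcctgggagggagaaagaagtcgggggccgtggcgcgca
In E2F1 the matches begin 33 and 20 bases before the start, the first of them read on the opposite strand. In RBL1 they begin 26 and 16 bases before it. E2F2 had 1 match beginning at -42 and E2F3 had 1 at -53. A match is a run of letters and was not tested as a binding site.

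Depth was estimated from the single-fragment steps of low values and ranged from about 19600000 (P4P6 replicate 0) to 28700000 (TOP1 replicate 0) fragments per library. At that depth each member rests on roughly 430 to 4800 fragments per library, and in each member's lowest library counting alone gives a coefficient of variation of 1.77 to 4.84%; the intervals below cover the spread between libraries. The Gaussia transcript, the target of the guides, was at 22.7 and 23.8 FPKM in CasVP, at 787 and 857 with sgRNA, at 189 and 163 with P4P6 and between 257 and 366 with INT and TOP1. The dCas9-VP64 transcript ranged from 14.6 to 25.9 FPKM, lowest in CasVP and highest with INT; its part in the results below was not tested. The guide transcript named sgRNA was listed at 233 FPKM in sgRNA replicate 0, at 109 in P4P6 replicate 0, a library of another guide, and at 0 in the others, sgRNA replicate 1 included. The Gaussia levels of both P4P6 libraries lay far below those of both sgRNA libraries. Of 6 markers typical of the line, VIM was at 226 to 284 FPKM and PAX2 at 0.755 to 1.28. Of markers of other cell types, PTPRC did not exceed 0.00756 FPKM, CD3E 0.0499 and ALB 0.245, while COL1A1 reached 1.94 and COL3A1 1.19. No named row was found for PECAM1. In RNA from whole wells, fewer cells expressing a gene and less RNA per cell cannot be told apart.

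All 3 pocket protein genes were expressed, with RB1 and RBL2 at nearly the same level and RBL1 at 21.2% of the summed pocket protein FPKM. RB1, the founding tumour suppressor of the family, stood at 25.1 and 25.4 FPKM in CasVP, 22.4 and 26.4 with sgRNA, 25.2 and 26.6 with INT, 24.0 and 25.4 with P4P6, and 24.8 and 26.0 with TOP1. The lowest and the second highest of these values belong to the sgRNA pair, and no guide group separated from CasVP. RBL2, the pocket protein that is most prominent in resting cells, stood at 23.3 and 23.0 FPKM in CasVP, 24.0 and 23.5 with sgRNA, 24.7 and 24.5 with INT, 22.3 and 25.3 with P4P6, and 25.2 and 24.6 with TOP1. Its lowest and highest libraries are both from P4P6, and the sgRNA, INT and TOP1 pairs lay above both CasVP libraries. RBL1, which is most prominent in proliferating cells, stood at 12.7 FPKM in both CasVP libraries, 13.1 and 12.5 with sgRNA, 12.9 and 13.8 with INT, 15.2 and 13.4 with P4P6, and 12.4 and 13.8 with TOP1. The highest library was P4P6 replicate 0, and the INT and P4P6 pairs lay above CasVP. RB1 made up 40.2% of the pocket protein FPKM (SD 1.33, n = 10 libraries), RBL2 38.5% (SD 1.34) and RBL1 the rest (SD 1.38).

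Among the activating E2Fs, E2F3 and E2F1 were near the same level and E2F2 was well below them. E2F1, which also can drive apoptosis when in excess, stood at 35.9 and 34.5 FPKM in CasVP, 36.5 and 34.0 with sgRNA, 33.5 and 35.1 with INT, 37.3 and 34.9 with P4P6, and 34.8 and 33.6 with TOP1. Every guide pair overlapped the CasVP pair, and the highest library was 1.11 times the lowest. E2F3, an activator needed for S-phase entry in many cell types, lay between 36.4 and 39.6 FPKM with a median of 38.0. Its coefficient of variation over the 10 libraries, 2.49%, was the smallest of the family. E2F2 stood at 14.7 and 12.4 FPKM in CasVP, 14.8 and 13.6 with sgRNA, 15.1 and 13.9 with INT, 16.1 and 13.3 with P4P6, and 14.6 and 13.7 with TOP1. Here the libraries within a group differed more than the group means did, with a coefficient of variation of 9.08% within groups and 3.04% for the group means. E2F1 was 2.47 times E2F2 on average, between 2.21 times in INT replicate 0 and 2.78 times in CasVP replicate 1.

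E2F4, the main E2F partner of RBL1 and RBL2, was the most abundant member and E2F5 was expressed at a lower level. E2F4 stood at 51.3 and 51.7 FPKM in CasVP, 49.6 and 47.2 with sgRNA, 50.1 and 48.7 with INT, 51.2 and 47.3 with P4P6, and 51.1 and 51.0 with TOP1. All 8 guide libraries lay below both CasVP libraries, which 4.82% of tested features matched in either direction. The gap was small: the mean over guides was 49.5 FPKM against 51.5 (SD 0.276, n = 2), a difference of -0.06 in log2(FPKM + 1) with a limma 95% confidence interval of -0.14 to 0.03 (adjusted p = 0.773; two-sided exact permutation p = 0.0889). E2F5 stood at 19.2 and 19.4 FPKM in CasVP, 17.5 and 18.9 with sgRNA, 17.1 and 18.2 with INT, 16.5 and 17.9 with P4P6, and 17.8 and 19.4 with TOP1. Of the guide libraries 7 of 8 lay below both CasVP libraries, and for RBL2 7 of 8 lay above. How many of all tested features did so was not counted. For E2F5 the difference over all guides was -0.11 on the log2 scale (SE 0.05, interval -0.22 to 0.01, limma adjusted p = 0.685, exact permutation p = 0.0889). E2F4 was 2.50 to 3.11 times E2F5 across the libraries.

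The atypical repressors E2F7 and E2F8 varied most among libraries. E2F7, which is induced in S phase and by DNA damage, stood at 15.7 and 14.3 FPKM in CasVP, 18.4 and 15.6 with sgRNA, 17.2 and 15.2 with INT, 15.9 and 13.1 with P4P6, and 18.7 and 16.3 with TOP1. The TOP1 pair lay above CasVP and the others overlapped it; the coefficient of variation was 10.8%, higher than that of 83.1% of tested features. E2F8, often expressed with E2F7, stood at 10.7 and 10.4 FPKM in CasVP, 9.96 and 9.81 with sgRNA, 9.70 and 10.1 with INT, 10.5 and 8.09 with P4P6, and 9.95 and 10.7 with TOP1. P4P6 replicate 1 alone lay outside the span of the others, from 9.70 to 10.7. E2F7 was 1.37 to 1.88 times E2F8.

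**Figure D1:**
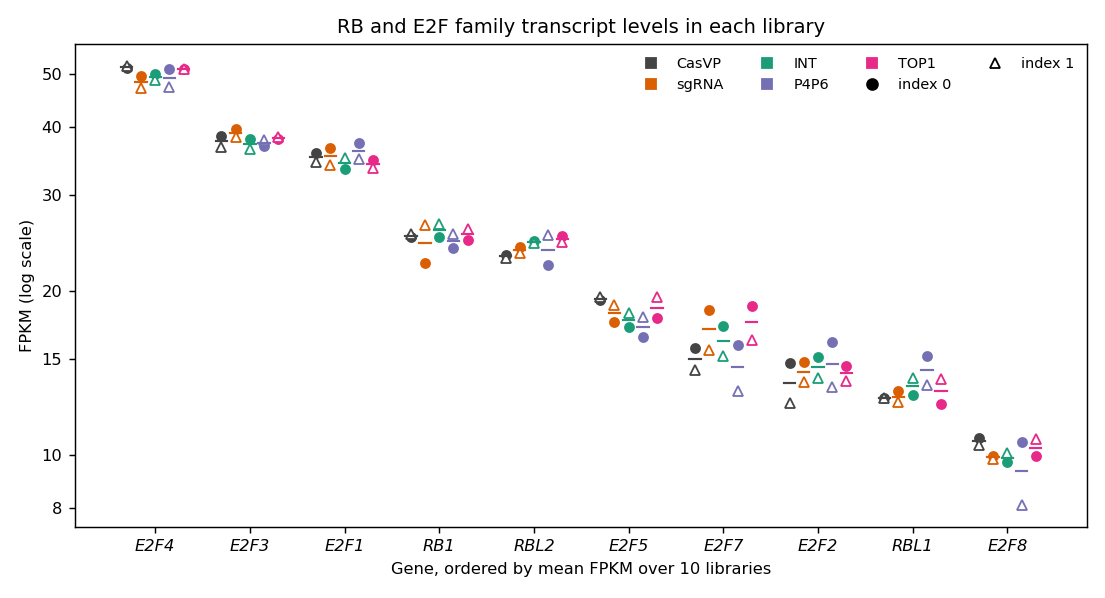
FPKM (log axis) of each family gene in each library, genes ordered by their mean over 10 libraries; colour gives the group, filled circles index 0, open triangles index 1, and short bars the mean of the 2 libraries. Genes span from 49.9 FPKM on average for E2F4 to 9.99 for E2F8. Within a gene, the highest library was from 1.09 times the lowest for E2F3 to 1.43 times for E2F7.

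FPKM is scaled by transcript length, so levels of the paralogues can be ordered as far as the lengths the authors used hold. Those lengths are not known here. An error in the length of a gene would be shared by all libraries, so the ranges below would not show it. The shares and ratios of summed FPKM rest on the same lengths. The means over 10 libraries were 49.9 FPKM for E2F4, 37.9 for E2F3, 35.01 for E2F1, 25.1 for RB1, 24.0 for RBL2, 18.2 for E2F5, 16.0 for E2F7, 14.2 for E2F2, 13.2 for RBL1 and 9.99 for E2F8. The ranges of neighbours did not overlap at 4 places in this order: E2F4 above E2F3, E2F1 above RB1, RBL2 above E2F5 and RBL1 above E2F8. E2F3 and E2F1 were not separated by their ranges (E2F3 higher in 9 of 10 libraries), nor were RB1 and RBL2 (RB1 higher in 8 of 10). In the run from E2F5 through E2F7 and E2F2 to RBL1, each gene overlapped the next, with the higher one ahead in 7, 8 and 7 of 10 libraries. The activators E2F1, E2F2 and E2F3 made up 48.1% of the summed FPKM of the 7 E2F members (SD 1.02, n = 10), E2F4 and E2F5 37.6% (SD 0.991), and E2F7 and E2F8 14.3% (SD 0.891). The share of E2F7 and E2F8 was lowest in P4P6 replicate 1, at 12.3%, and highest in TOP1 replicate 0, at 15.5%. Summed E2F FPKM was 2.91 times the summed pocket protein FPKM (SD 0.136), from 2.69 to 3.13 times.

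With all 10 libraries and no replicate block, no family gene passed in any comparison. Differences were tested with limma on log2(FPKM + 1) over all tested features, with Benjamini-Hochberg adjustment and a threshold of 0.05. In the test for any difference among the 5 groups 0 of 10 members passed, where 0.0259% of tested features did, and their adjusted p ran from 0.406 for E2F7 to 0.916 for E2F2. None of the 10 had an unadjusted p under 0.05 in that test, where 23.95% of tested features did. Over all guides against CasVP, 0 of 10 passed (0.0173% of features), with 0 at an unadjusted p under 0.05 (7.43% of features). Differences ran from -0.11 for E2F5 to 0.11 for E2F7 around a median of 0.00, the median of all tested features also being 0.00. RB1 differed by -0.01 (interval -0.14 to 0.12) and E2F1 by -0.01 (interval -0.11 to 0.09). RBL1 and RBL2 each differed by 0.06 (intervals -0.07 to 0.20 and -0.04 to 0.17).

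Over the 8 comparisons each interval was read on its own, with no adjustment for their number. All tested features, set beside them, include many at levels below those of the members. All 80 of 80 intervals lay within 1.5-fold of no change in FPKM + 1, as did 98.4% of those of all tested features, and 74 of 80 lay within 1.25-fold, against 80.3% for all features. E2F7 accounted for 4 of the 6 wider ones, up to 1.38-fold for P4P6 against sgRNA, and E2F2 and E2F8 for 1 each, both in P4P6 against CasVP. The median coefficient of variation over 10 libraries was 5.22% for the members and 6.77% for all tested features. Within groups these medians were 5.32% and 5.38%, and for the group means 2.99% and 5.30%. Among the 9127 features with a mean of at least 5 FPKM, a level that every member exceeds, the medians were 6.11% over 10 libraries, 4.71% within groups and 4.81% for the group means, so that within groups the members' median lay above that of features at such levels.

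**Figure D2:**
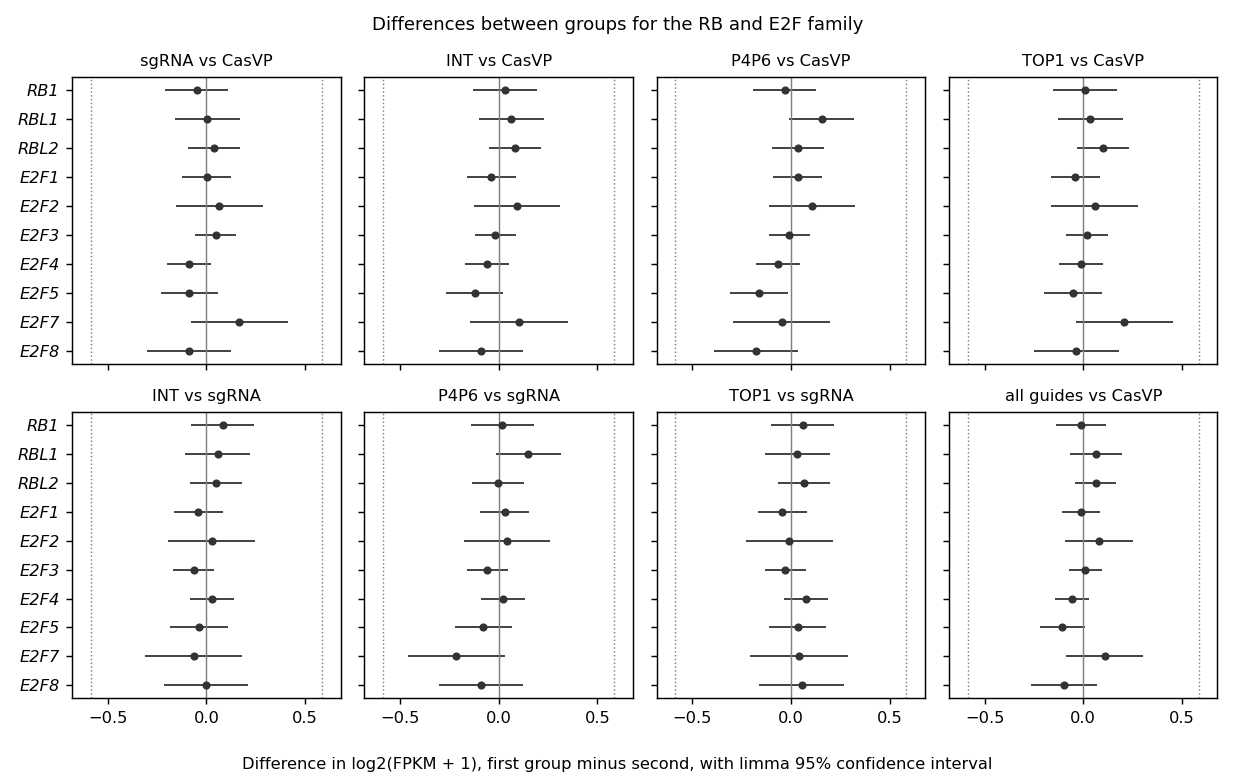
Difference in log2(FPKM + 1) of each family gene in 8 comparisons, first group minus second; points are limma estimates, bars 95% confidence intervals and dotted lines a 1.5-fold change either way. Every bar stays inside the dotted lines, and the widest belong to E2F7.

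The guide groups were also compared with CasVP one at a time; these 4 comparisons share the CasVP libraries. With sgRNA 0 of 10 members passed (0.0173% of features), with INT 0 of 10 (0.0173%), with TOP1 0 of 10 (0.00864%) and with P4P6 0 of 10 (0.00864%). At an unadjusted p under 0.05 there were 0, 0, 0 and 1 members, where 6.02%, 8.86%, 9.22% and 22.2% of all features reached it. That member was E2F5 with P4P6, with means of 17.2 FPKM (SD 1.00, n = 2) for P4P6 and 19.3 (SD 0.160) for CasVP (log2 difference -0.16, SE 0.07, limma adjusted p = 0.186). The largest estimate against CasVP was that of E2F7 with TOP1, 17.5 against 14.99 FPKM (SD 1.73 and 0.986; 0.21, SE 0.11, limma adjusted p = 0.584). Ranges did not overlap CasVP for 4 members with sgRNA, 5 with INT, 3 with P4P6 and 3 with TOP1, beside 46.0%, 43.4%, 51.6% and 48.2% of tested features.

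E2F8 with P4P6 depended on 1 library. With both P4P6 libraries its mean was 9.32 FPKM (SD 1.73, n = 2) and that of CasVP 10.6 (SD 0.231), a log2 difference of -0.18 (limma adjusted p = 0.308). Without P4P6 replicate 0 the difference was -0.35 (SE 0.07, limma adjusted p = 0.0278), and against sgRNA it was -0.26 (adjusted p = 0.0344). Under that setting 6.6% of all features passed against CasVP and 17.7% against sgRNA, shares near the 1 of 10 members. Both calls rest on P4P6 replicate 1 alone, which is assumed to vary like the other libraries.

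Among guides, INT against sgRNA and TOP1 against sgRNA each gave 0 of 10 members (0.00864% of features in each). At an unadjusted p under 0.05 there were 0 members in each, where 8.77% and 1.68% of features reached it. P4P6 against sgRNA was the comparison with many calls, 11.5% of tested features, and there too 0 of 10 members passed. At an unadjusted p under 0.05 there were 0 members as well, where 30.3% of features reached it. E2F7 had the largest estimate, with 15.9 and 13.1 FPKM in P4P6 against 18.4 and 15.6 with sgRNA, so that P4P6 was lower at each index while the pairs overlap (log2 difference -0.21, SE 0.11, interval -0.46 to 0.03, limma adjusted p = 0.221). RBL1 lay on the other side, with both P4P6 libraries above both sgRNA libraries (0.15, SE 0.07, limma adjusted p = 0.202). Pairs did not overlap for 2 of 10 members, RBL1 and E2F3, where 56.5% of features did not. INT and TOP1 each left 2 of 10 apart from sgRNA as well, beside 43.0% and 29.2% of features.

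The other genes of the pathway were taken as 7 lists with 71 entries, of which 70 were tested. Dimer partners of the E2Fs were abundant, TFDP1 at 73.2 FPKM (SD 1.94, n = 10) and TFDP2 at 38.5 (SD 2.06), while TFDP3 was listed at 0 throughout. E2F6, a repressive E2F that works with polycomb proteins, was at 19.5 FPKM (SD 0.745). MYBL2, which joins the MuvB core in proliferating cells, was at 105 FPKM (SD 4.36), and RBBP4, a histone-binding MuvB subunit, at 76.9 (SD 2.53). CDK4, the kinase that with D-type cyclins begins RB phosphorylation, was at 262 FPKM (SD 18.7). Of the D-type cyclin genes, CCND3 was at 17.0 FPKM (SD 1.45), CCND2 at 15.1 (SD 1.16) and CCND1 (cyclin D1) at 2.40 (SD 0.330). The S-phase kinase gene CDK2 and its cyclin partner CCNA2 were at 71.6 (SD 5.66) and 65.3 FPKM (SD 5.46). CDKN2A, which encodes the CDK4 inhibitor p16 and, in another frame, ARF, was the most abundant CDK inhibitor gene at 88.6 FPKM (SD 15.4), and CDKN1B (p27) was at 34.1 (SD 1.54). The corepressor genes RBBP7 and HDAC1 were at 231 (SD 17.3) and 174 FPKM (SD 4.82). Targets of E2F at the G1/S boundary were led by PCNA, the sliding clamp of DNA polymerase, at 433 FPKM (SD 35.8), and by the replicative helicase genes MCM7 at 272 (SD 14.5) and MCM3 at 185 (SD 5.38). CCNB1 and TOP2A, genes of the later MuvB program, were at 102 (SD 6.02) and 92.4 FPKM (SD 5.67).

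Over all guides against CasVP, 0 of the 70 pathway genes passed, where 0.0173% of all tested features did. The medians of the lists ran from -0.03 for the MuvB core and its partners to 0.04 for CDK inhibitors, beside 0.00 for all features. The largest estimate was that of CDKN1A (p21), a p53-responsive CDK inhibitor gene, at 31.6 FPKM in CasVP (SD 2.78, n = 2) and 35.7 to 40.3 in the guide groups (0.27, limma adjusted p = 0.669). CCND1 differed by 0.20 (adjusted p = 0.669), LIN52 of the MuvB core by -0.12 (adjusted p = 0.752), TYMS, the thymidylate synthase gene, by 0.13 (0.777) and CENPE, a mitotic kinesin gene, by 0.14 (0.820), none of which passed. The remaining genes with the widest differences in their lists, CCND2, CDKN2A and TK1 (thymidine kinase), stood at 0.16, 0.23 and -0.11 (adjusted p = 0.669, 0.770 and 0.734), and NUSAP1, a spindle gene, at 0.06 (0.824).

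In P4P6 against sgRNA 13 of the 70 pathway genes passed and 0 of 10 family members, where 11.5% of all features did; a difference between the family and the pathway was not tested. Of 22 G1/S target genes 6 fell and 1 rose, where 7.17% of all features were called lower and 4.33% higher. The median of the list was -0.14, beside -0.01 for all features and -0.03 for those with a mean of at least 5 FPKM. Falls and rises here are relative to sgRNA, and no gene of the lists passed in P4P6 against CasVP or sgRNA against CasVP. The G1/S median was -0.08 for P4P6 against CasVP and 0.06 for sgRNA against CasVP. PCNA fell from 468 and 452 FPKM with sgRNA to 394 and 370 with P4P6 (log2 difference -0.27, SE 0.05, limma adjusted p = 0.025). Its CasVP mean, 431 FPKM (SD 6.48, n = 2), lay between the 2 groups. FEN1, the flap endonuclease gene, fell from 87.2 and 82.8 to 73.7 and 67.8 FPKM. GMNN, MCM6, RRM1 and SLBP also fell, by 0.24, 0.19, 0.22 and 0.17 on the log2 scale, and CHAF1A, a chromatin assembly factor gene, rose by 0.15. In the other lists CDK4 fell from 273 and 274 to 242 and 222 FPKM, and CDK1, listed under its older symbol CDC2, from 126 and 120 to 107 and 96.2. The CasVP mean was 275 FPKM for CDK4 (SD 7.86), near sgRNA, and 116 for CDK1 (SD 2.15), between the 2 groups. The rows naming LIN37 with PSENEN and ARID4B with RBM34, whose genes cannot be told apart, fell by 0.31 and 0.16. FOXM1, a mitotic transcription factor gene, rose from 33.2 and 34.4 to 38.6 and 41.8 FPKM, and the chromatin remodeller gene SMARCA4 from 38.4 and 38.5 to 45.9 and 44.5.

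These calls were not stable to the choice of libraries. With the 4 libraries of the compared groups only, 0 of the 70 pathway genes passed, and 2 of all tested features did. Without P4P6 replicate 1, sgRNA replicate 0 or sgRNA replicate 1, a compared group held 1 library. The pathway calls were then lost, as were nearly all calls over all features. CasVP replicate 0 and CasVP replicate 1 are not part of the comparison but share its estimate of spread. Without either of them, fewer pathway genes and fewer of all tested features passed. Without P4P6 replicate 0, a compared group likewise held 1 library, P4P6 replicate 1. More pathway genes and more of all tested features then passed, most of them lower. The median of the G1/S list was -0.19 under that setting and rests on P4P6 replicate 1 alone in that group. The median of that list was -0.14 with the compared groups only, -0.10 without sgRNA replicate 0, -0.17 without sgRNA replicate 1 and -0.06 without P4P6 replicate 1. Without the intensity trend 5 pathway genes fell and 1 rose, where 328 of all tested features fell and 340 rose. Of 5 tested markers of the line 1, LIN28B, was lower with P4P6 than with sgRNA as well. Of the calls over all features 62.4% were lower with P4P6, and 49.1% without the intensity trend. With median-of-ratios rescaling 53.4% were lower, still the larger share, and with quantile normalization 23.2%. Under quantile normalization 1 pathway gene fell and 5 rose, where 90 of all tested features fell and 298 rose. Of the 22 genes of the G1/S list 0 fell and 1 rose under quantile normalization, and the median of the list was -0.06.

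**Figure D3:**
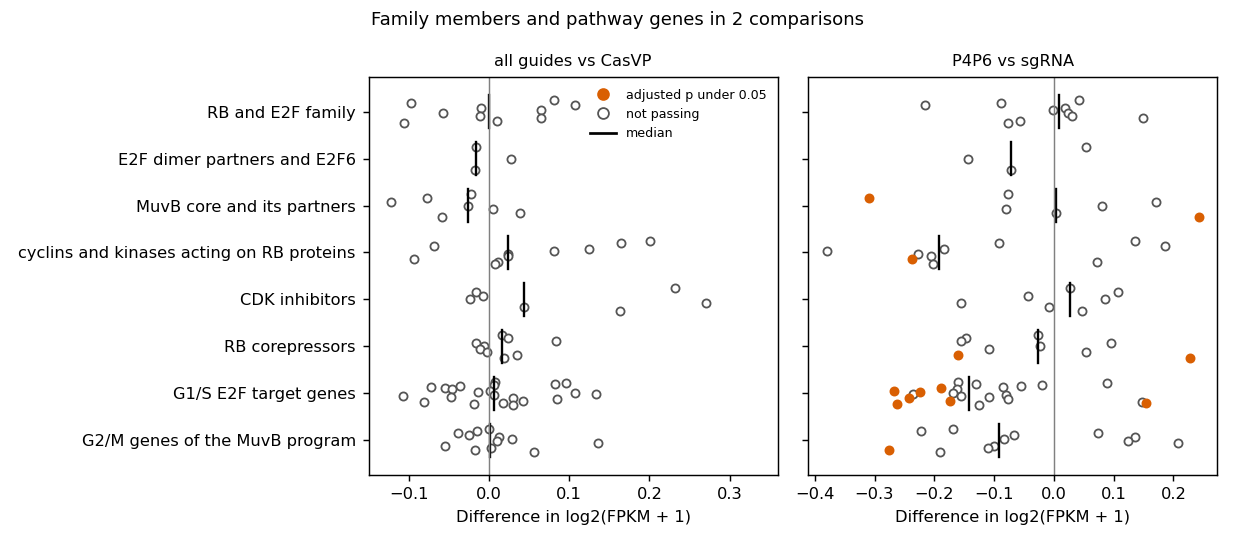
Differences in log2(FPKM + 1) for the family and 7 pathway lists, all guides against CasVP (left) and P4P6 against sgRNA (right); each circle is a gene, filled where the limma adjusted p is under 0.05, and black bars are medians. On the left no circle is filled, and on the right 13 pathway genes and 0 family members are.

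Libraries with index 0 and index 1 differed in the same direction in all 5 groups for 4 of 10 family members, beside 19.8% of tested features; this was noticed in the data, and the labels do not say what the index stands for. E2F7 was higher in index 0 in 5 of 5 groups, by 1.10 to 1.22 times, with means of 17.2 FPKM (SD 1.39, n = 5) against 14.9 (SD 1.22). E2F2 was higher in index 0 in 5 of 5 groups as well, by 1.06 to 1.21 times (15.1 FPKM, SD 0.609, against 13.4, SD 0.568). RB1 and E2F5 were lower in index 0 in 5 of 5 groups, at 24.3 against 26.0 FPKM and 17.6 against 18.8 FPKM.

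The tested features whose log2(FPKM + 1) followed RB1 most closely over the 10 libraries were MEIS2 (Pearson's r 0.89), TRPS1 (0.89) and KPNA1 (0.88). For E2F1 they were TRIM44 (0.94), NPHP4 (0.92) and D2HGDH (0.91). These were picked as the highest among 11574 features and share library, depth and scaling with the family genes, so they are a description only. KPNA1 spanned 18.4 to 19.0 FPKM and TRIM44 26.9 to 28.98.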

How the data were processed

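Polyadenylated RNA of 10 HEK293FT libraries was read from 1 matrix of FPKM values deposited by the authors, 1 column per library; the unit was taken from the values. The tools named per the submitters' processing notes are TopHat2 2.0.13 and Cuffdiff 2.2.1, and the build is hg19; which annotation was used, and how libraries were scaled, is not given in the sources used here. Of 20246 features, 945 without a name were left out. Groups came from the titles. Features with a mean of at least 1 FPKM were fitted as log2(FPKM + 1), a pseudocount of 1, with limma 3.58.1 under R 4.3.3. The fit held all 10 libraries, had a mean for each group, an intensity trend and 5 residual degrees of freedom. A fold on this scale understates changes of low genes. Tests were two-sided, adjusted by Benjamini-Hochberg over 11574 features. The exact permutation test used the 45 ways to choose 2 of 10 libraries (smallest p 0.0222). The fit was tested on simulated data.

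Depth came from features with a mean of at most 0.05 FPKM: of 10029 such values, 78.4% lay within 0.05 of a whole number of the estimated single-fragment steps, and the absolute scale used GENCODE 29 lengths of 461 genes. The lengths differ from those the authors used, so fragment numbers are rough. Older symbols came from RefSeq (GRCh38.p14) for 2 pathway genes, and 4 shared a row with another gene. Genes were named by a rule: all members; from each list those that passed a comparison, and, whether or not any did, the 3 most abundant and the 2 with the largest difference over all guides; and the 3 features most like RB1 and E2F1. CCND3 was added so that the D-type cyclin genes are given together. Members and lists were chosen with earlier results of these data known. Alternatives were another pseudocount, other filters and scalings, a replicate block, no trend, fewer groups, and each library left out.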

Additional observations from a re-analysis of the deposited data

How the results depend on the processing

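In recounts of members that passed under an alternative, 156 gave 0, as in the main fit, and 4 gave 1. These were E2F7 with a replicate block (P4P6 against sgRNA, adjusted p = 0.0202, and the test among 5 groups, 0.0353, settings under which 20.1% and 11.1% of features passed) and E2F8 without P4P6 replicate 0, so that leaving out 1 library gave 0 to 1 members in P4P6 against CasVP and against sgRNA. The columns' index is not tied to the labels' replicate numbers. Differences between index 0 and index 1 correlated over features at -0.0364 to 0.415 between groups (median 0.202), not above 0.1 in every pair of groups, so the index was not taken as a pairing; whether it marks a shared batch is not known. The index term of the block gave adjusted p = 0.0535 for E2F7 and 0.0784 for E2F2; no other member was under 0.15. With the block, features that passed were 2326 in P4P6 against sgRNA (1331 without it), 600 in P4P6 against CasVP and 1288 among the 5 groups.

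For P4P6 against sgRNA the count was 641 without a filter, 388 with quantile normalization, 668 without the trend and 2 with the compared groups only, and 1 to 2046 with a library left out. P4P6 against CasVP gave 7 with quantile normalization and 1 to 764 with a library left out. The test among 5 groups gave 3, with 5 without a filter or at a mean of at least 5 FPKM, 25 with quantile normalization, 1 without the trend and 1 to 526 with a library left out. sgRNA against CasVP gave 1 without a filter or trend, 4 with the compared groups only and 1 to 2 with a library left out. All guides gave 1 without a filter or trend and 1 to 3 with a library left out. Both TOP1 comparisons gave 3 without a filter, and INT and TOP1 comparisons 1 to 2 with a library left out. The cause of these shifts was not tested.

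Differences over all guides turned sign only with a library left out, for RB1 (-0.0381 to 0.0184), E2F1 (-0.0368 to 0.0159), E2F2 (-0.0332 to 0.195) and E2F3 (-0.0219 to 0.0426). The order of levels was the same by the median and in 4 groups; in P4P6, 2 members changed places. Counting error limits E2F5 and E2F8 most.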
